A study of Mus musculus with 8 samples.

Results

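The 37 genes described here write, erase or read acyl marks on histone lysines, or supply the acyl groups. They were taken by gene name from a read count table of 55450 mouse genes, and all 37 were found. The set holds 10 acetyltransferases, 3 nuclear receptor coactivators with acetyltransferase activity, 11 classical histone deacetylases, 7 sirtuins, 2 acetyl-lysine readers of the BET family, 2 enzymes that supply acetyl-CoA and 2 alanyl-tRNA synthetases. The series concerns histone lactylation in tumour neutrophils, and the 8 RNA libraries came from neutrophils that a cell sorter had split by CD71, the receptor for transferrin. There were 4 groups of 2 libraries. Tumour CD71+ and tumour CD71- neutrophils came from mouse brain tumours, with SB28, a mouse glioma cell line, given as the source. Culture CD71+ and culture CD71- neutrophils were made in vitro, with naive bone marrow as their tissue. The labels give no genotype, age or treatment, and do not say whether the 2 libraries of a group came from separate animals or cultures, so that each p reflects library spread alone, which may be technical.

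Lysines of histone tails carry a positive charge that binds DNA, and acetyltransferases remove it by moving an acetyl group from acetyl-CoA onto the lysine. Deacetylases take the group off with a zinc ion in the active site, and sirtuins do so while consuming NAD+. Bromodomain proteins such as those of the BET family bind the acetylated lysine and bring transcription factors to it. Some of the same enzymes handle other acyl groups. The acetyltransferase p300 can place lactyl groups, class I deacetylases and some sirtuins can remove them, and alanyl-tRNA synthetases have been described as lactyltransferases that use lactate itself. Neutrophils are short-lived granulocytes with condensed, lobed nuclei, and histone modification has been tied to their maturation and activation.

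Total counts were 11713166 and 11147646 in tumour CD71+, 11898224 and 11175405 in tumour CD71-, 22615813 and 19385298 in culture CD71+ and 13816733 and 9598959 in culture CD71- libraries. The 37 genes took 0.253% to 0.412% of the counts of a library. Levels are CPM on library sizes adjusted by the trimmed mean of M values (TMM). The neutrophil label was checked against 25 mature neutrophil markers, whose summed level was 18600 to 18900 CPM in tumour CD71+, 36500 to 38900 in tumour CD71-, 5380 to 6720 in culture CD71+ and 10900 to 11400 in culture CD71- libraries. Tfrc, the gene of CD71 itself, was at 103 and 108 CPM in tumour CD71+ libraries, against 187 and 145 CPM in tumour CD71- libraries, and at 116 and 115 CPM in culture CD71+ libraries, against 131 and 94.3 CPM in culture CD71- libraries, so its RNA did not follow the sort on the protein. None of the 25 was at 0 in a whole group, and Ly6g, the antigen most used to sort mouse neutrophils, was at 6.06 and 9.03 CPM in tumour CD71+ libraries, against 9.35 and 14.1 in tumour CD71- libraries. Summed levels of 20 macrophage and monocyte markers were 4190 to 4580 CPM in tumour CD71+, 955 to 963 in tumour CD71-, 1520 to 1810 in culture CD71+ and 1020 to 1080 in culture CD71- libraries. C1qa and Cd163 were at 0 in both culture CD71- libraries. Summed levels of 10 microglia markers were 1180 to 1670 CPM in tumour CD71+, 219 to 261 in tumour CD71-, 143 to 175 in culture CD71+ and 77.4 to 78 in culture CD71- libraries, with Sall1 and Siglech at 0 in culture. Exons of Kat5, Kat8, Ncoa1, Ncoa3, Hdac4, Hdac7, Hdac11, Sirt1, Sirt2, Sirt3, Brd2, Acss2 and Aars overlap a gene on the opposite strand, among them Psmd13 and Ric8a at Sirt3, and without a known strand setting their counts are uncertain. Fewer cells of a type and less RNA per cell cannot be told apart in such libraries.

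Levels of different genes were compared per length of exon, as RPKM, the CPM of a gene per kilobase of exon. Brd2 stood first among the 37 genes in tumour CD71+ and tumour CD71- libraries, with means of 48.5 and 76.5 RPKM, and Ncoa3 stood second with 36.7 and 58.2 RPKM. Acly stood first in culture CD71+ and culture CD71- libraries, with 72.1 and 82.8 RPKM. Ep300, the gene of p300, ranked 7, 5, 3 and 3 in the 4 groups, with 21.6 RPKM in tumour CD71+, 28.3 in tumour CD71-, 25.5 in culture CD71+ and 36.5 in culture CD71- libraries. Hdac11 ranked 36 or 37 of the 37 genes in each group, and Hdac9 ranked 36 in all but tumour CD71+ libraries, where it ranked 33. No group lacked detectable reads of any of the 37 genes, but Hdac11 had 3 counts in the 2 tumour CD71- libraries together and 2 counts in the 2 culture CD71- libraries together.

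**Figure D1:**
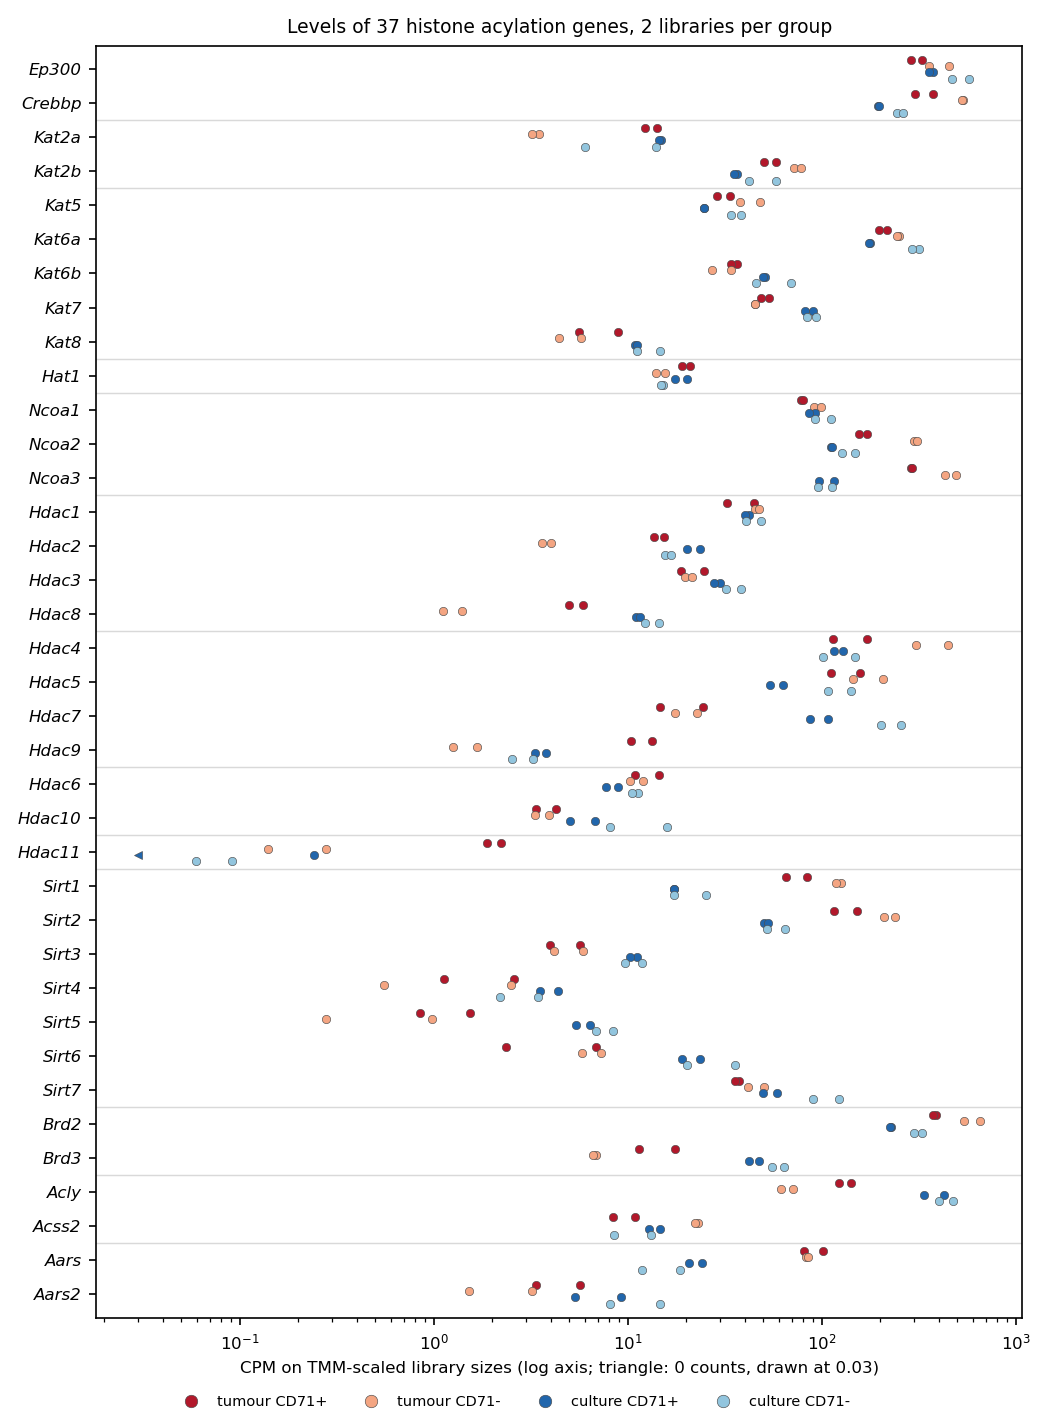
Level of each of the 37 genes in each library, as CPM on TMM-scaled library sizes (log axis); each point is 1 of 2 libraries of a group, and horizontal lines part the enzyme families, and a triangle marks 0 counts. Acly lies lower in all tumour libraries (61.7 to 142 CPM) than in all culture libraries (336 to 473 CPM), while Sirt1 lies higher in all tumour libraries (65.2 to 126 CPM) than in all culture libraries (17.2 to 25.4 CPM).

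Within the tumour, 7 of the 37 genes rose and 8 fell in CD71+ relative to CD71- neutrophils. The 7 were Kat2a, Hdac2, Hdac8, Hdac9, Hdac11, Brd3 and Acly, and the 8 were Crebbp, Ncoa2, Ncoa3, Hdac4, Sirt1, Sirt2, Brd2 and Acss2. The threshold was an adjusted p of 0.05 in the quasi-likelihood test of edgeR, after Benjamini and Hochberg over 15975 genes. These shares, 18.9% higher and 21.6% lower, stand beside 26.2% higher and 17.3% lower among all genes tested. The median log2 fold change was -0.04 over the 37 genes and 0.13 over all genes. Of 19 macrophage and monocyte markers tested, 16 rose and none fell in the same comparison, and 9 of 10 microglia markers rose. Of 15 genes of dividing cells, 12 rose, while 16 of 25 mature neutrophil markers fell and 1 rose. The part of these markers in the values of the 37 genes was not tested.

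The scaling of the libraries set where 0 lay in that comparison. The median of all genes was 0.13 with TMM factors, -0.07 with DESeq2 size factors, 0.69 with total counts and 1.13 with scaling on the mature neutrophil markers. Calls over all genes numbered 4182 higher and 2769 lower with TMM, 3454 and 3854 with DESeq2 size factors, 6787 and 491 with total counts and 9186 and 32 with the neutrophil markers. All 7 genes called higher passed under these 4 scalings. Of the 8 called lower, Hdac4 passed under TMM, DESeq2 size factors and total counts, and none passed with the neutrophil markers. Relative to the median gene the values hardly moved: that of Hdac4, for example, lay between -1.55 and -1.54 under the 4 scalings. This follows from the subtraction, since another scaling shifts all genes by nearly the same amount, and is no test of the values. With TMM 15 of the 37 genes lay above the median gene and 22 below it. Leaving out tumour CD71+ replicate 2 left 5 genes lower.

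In culture, none of the 37 genes rose and 4 fell in CD71+ relative to CD71- neutrophils, namely Kat6a, Hdac5, Hdac7 and Sirt7. The share of 10.8% lower stands beside 8.36% lower and 7.88% higher among all genes tested. By edgeR's test 11 of the 37 genes had an unadjusted p under 0.05, beside 4887 of all 15975 genes tested. The DESeq2 test called 7 lower and none higher, and its share over all genes is not given here. The median log2 fold change was -0.24 over the 37 genes and 0.03 over all genes. One library could move this count: 1 gene was lower without culture CD71+ replicate 1, and 7 were lower and 2 higher without culture CD71- replicate 2. Transcripts of mitochondrial genes made up 1.45% and 2.17% of counts in culture CD71+ libraries, against 7.09% and 12% in culture CD71- libraries, and 11 of 25 mature neutrophil markers fell while 12 of 19 macrophage and monocyte markers rose. Their part in the result was not tested.

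**Figure D2:**
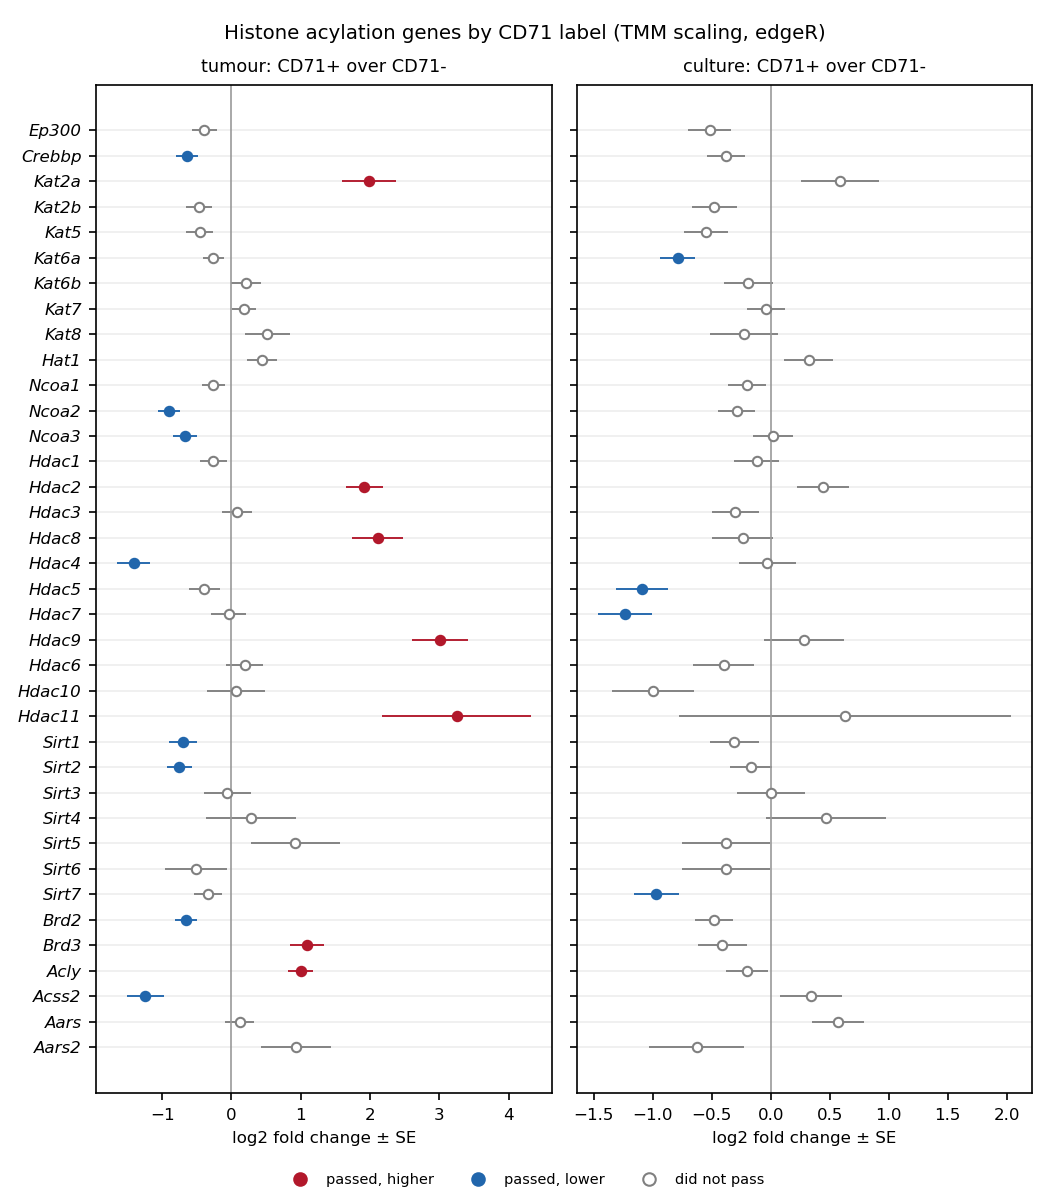
Log2 fold change of CD71+ over CD71- neutrophils for each of the 37 genes (points, with SE as bars), in the tumour on the left and in culture on the right, on separate axes; filled points passed at an edgeR adjusted p under 0.05. In the tumour the values run from -1.41 (Hdac4) to 3.25 (Hdac11), and in culture from -1.24 (Hdac7) to 0.63 (Hdac11, which did not pass).

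Among the acetyltransferases, Ep300 and Crebbp encode p300 and CBP, related coactivators that acetylate histones at enhancers. Ep300 was at 328 and 288 CPM in tumour CD71+ libraries, against 358 and 451 CPM in tumour CD71- libraries. In culture it was at 373 and 355 CPM in CD71+ libraries, against 572 and 471 CPM in CD71- libraries. The groups did not overlap in either origin, yet neither difference passed. The log2 fold change was -0.39 ± 0.18 (SE) in the tumour (edgeR adjusted p 0.085) and -0.52 ± 0.18 in culture (edgeR adjusted p 0.06). In the tumour the sign turned with total counts (0.16, edgeR adjusted p 0.535) and with scaling on the neutrophil markers (0.62, edgeR adjusted p 0.0104). DESeq2 size factors gave -0.62 (edgeR adjusted p 0.0116). The DESeq2 test called Ep300 lower in the tumour (-0.62, DESeq2 adjusted p 0.00479) and in culture (-0.56, DESeq2 adjusted p 0.0213). The tumour value also passed without tumour CD71- replicate 1 (-0.70, edgeR adjusted p 0.022), without culture CD71- replicate 1 (edgeR adjusted p 0.0402) and without culture CD71- replicate 2 (edgeR adjusted p 0.0395), and the culture value passed with DESeq2 size factors (-0.56, edgeR adjusted p 0.0407) and without culture CD71- replicate 2 (-0.64, edgeR adjusted p 0.0237). Relative to the median gene, Ep300 was at -0.55 to -0.51 in the tumour under the 4 scalings and at -0.56 to -0.54 in culture under 3. That closeness follows from the subtraction of the median. The CD71 effects of both origins differed by 0.12 ± 0.25 (edgeR adjusted p 0.79).

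Crebbp was at 375 and 301 CPM in tumour CD71+ libraries, against 531 and 525 CPM in tumour CD71- libraries. It fell by 0.64 ± 0.16 on the log2 scale (edgeR adjusted p 0.0063), but stood at 0.36 with scaling on the neutrophil markers and lost the call with total counts (-0.09, edgeR adjusted p 0.702) or without tumour CD71+ replicate 2 (-0.51, edgeR adjusted p 0.086). Culture libraries held less of it, with 194 and 197 CPM in CD71+ and 244 and 263 CPM in CD71- libraries. Between origins Crebbp was 1.73-fold higher in tumour than in culture CD71+ neutrophils (edgeR adjusted p 0.00094) and 2.08-fold higher in CD71- neutrophils (edgeR adjusted p 6.6e-05). With total counts these log2 values were 0.11 and 0.13 and did not pass. Ep300 differed between origins by -0.24 ± 0.18 in CD71+ (edgeR adjusted p 0.25) and -0.37 ± 0.18 in CD71- neutrophils (edgeR adjusted p 0.079). It passed as lower with total counts (-0.92 and -1.29), and in CD71- neutrophils also with no filter (edgeR adjusted p 0.0318) and without culture CD71- replicate 2 (edgeR adjusted p 0.0187). The ratio of both genes within a library needs no scaling. Crebbp over Ep300, in RPKM, was 1.2 and 1.1 in tumour CD71+, 1.56 and 1.23 in tumour CD71-, 0.548 and 0.584 in culture CD71+ and 0.45 and 0.589 in culture CD71- libraries, so every tumour library lay above 1 and every culture library below it.

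Kat2a and Kat2b encode GCN5 and PCAF, the related catalytic subunits of the SAGA and ATAC coactivator complexes. Kat2a was at 14.2 and 12.2 CPM in tumour CD71+ libraries, against 3.49 and 3.19 CPM in tumour CD71- libraries. It rose 3.96-fold (log2 1.98 ± 0.39, edgeR adjusted p 0.0013) and passed under every alternative run. In culture it was at 14.9 and 14.5 CPM in CD71+ libraries, against 6.04 and 13.9 CPM in CD71- libraries, and the difference of 0.59 ± 0.33 did not pass (edgeR adjusted p 0.25). Tumour CD71- libraries thus held the lowest levels, and those of the other 3 groups ran from 6.04 to 14.9 CPM. Kat2a was lower in tumour than in culture CD71- neutrophils (log2 -1.55, edgeR adjusted p 0.0029, and 0.0525 without tumour CD71- replicate 2). Kat2b ran the other way in the tumour, at 50.5 and 58.1 CPM in CD71+ libraries, against 72 and 77.9 CPM in CD71- libraries (log2 -0.47 ± 0.19, edgeR adjusted p 0.062). It was higher in tumour than in culture neutrophils in both sort fractions (log2 0.60, edgeR adjusted p 0.015, and 0.58, edgeR adjusted p 0.015), but turned to -0.08 and -0.35 with total counts. In CD71+ neutrophils its call was lost without culture CD71+ replicate 1 (0.0905), culture CD71+ replicate 2 (0.118) or tumour CD71+ replicate 2 (0.138), and in CD71- neutrophils without culture CD71- replicate 2 (0.134), each an edgeR adjusted p. With no filter the CD71+ call of Kat2b was lost too (edgeR adjusted p 0.0548). Reads of Kat2b may be shared with the pseudogene Kat2b-ps, which matched it at 95.1% over 2479 bases.

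The MYST family holds 5 of the genes. Kat5 encodes TIP60 of the NuA4 complex, Kat6a and Kat6b encode MOZ and MORF, Kat7 encodes HBO1 and Kat8 encodes MOF, an acetyltransferase of histone H4. None of the 5 passed between CD71+ and CD71- neutrophils of the tumour. Kat6a, required for blood stem cells, was at 177 and 174 CPM in culture CD71+ libraries, against 316 and 291 CPM in culture CD71- libraries. It fell by 0.79 ± 0.15 on the log2 scale (edgeR adjusted p 0.0034), and the call was lost with total counts (0.0591) and without culture CD71+ replicate 1 (0.0582) or replicate 2 (0.0584), each an edgeR adjusted p. In the tumour Kat6a was at 196 and 216 CPM in CD71+ libraries, against 249 and 245 CPM in CD71- libraries (log2 -0.26 ± 0.15, edgeR adjusted p 0.18). Kat7 was lower in tumour than in culture cells in both fractions, at 48.4 and 53.6 CPM in tumour CD71+ against 90.5 and 81.5 in culture CD71+ libraries, and at 45.1 and 45 CPM in tumour CD71- against 93.1 and 83.5 in culture CD71- libraries. Its log2 values of -0.75 ± 0.16 (edgeR adjusted p 0.0014) and -0.97 ± 0.17 (edgeR adjusted p 0.00017) passed under every alternative run. Kat8, at 4.43 to 14.7 CPM over all libraries, was lower in tumour than in culture CD71- neutrophils (log2 -1.35, edgeR adjusted p 0.0021, and 0.0509 without tumour CD71- replicate 2). Kat6b was lower in the same comparison (log2 -0.91, edgeR adjusted p 0.0019, and 0.0614 without tumour CD71- replicate 2) and in CD71+ neutrophils (log2 -0.52, edgeR adjusted p 0.047). That CD71+ call of Kat6b was lost in 6 of the 8 fits that left out a library, all those without a tumour or a culture CD71+ library, with edgeR adjusted p of 0.0559 to 0.138. DESeq2 size factors (0.0793) and a stricter filter on low counts (0.0576), each an edgeR adjusted p, lost this Kat6b call too. So did the DESeq2 test (DESeq2 adjusted p 0.106). Kat5 passed in no comparison, and neither did Hat1, the type B enzyme that acetylates new histone H4 before its assembly, at 14 to 21 CPM over all libraries.

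Ncoa1, Ncoa2 and Ncoa3 encode the steroid receptor coactivators, which recruit p300 and CBP to nuclear receptors. Ncoa3 was at 287 and 292 CPM in tumour CD71+ libraries, against 490 and 429 CPM in tumour CD71- libraries. Culture libraries held 115 and 96.2 CPM in CD71+ and 113 and 95.7 CPM in CD71- cells, below every tumour library. Ncoa3 was 2.74-fold higher in tumour than in culture CD71+ neutrophils (edgeR adjusted p 6.3e-06) and 4.4-fold higher in CD71- neutrophils (edgeR adjusted p 1.2e-07), and both calls held under every alternative run. Between CD71 fractions of the tumour it fell by 0.67 ± 0.17 (edgeR adjusted p 0.006), a call that was lost with total counts (-0.10) and turned to 0.34 with the neutrophil markers. Ncoa2 was at 171 and 155 CPM in tumour CD71+ libraries, against 298 and 308 CPM in tumour CD71- libraries, and fell by 0.90 ± 0.16 (edgeR adjusted p 0.00067), against -0.34 with total counts and 0.11 with the neutrophil markers. Relative to the median gene these falls were -0.80 for Ncoa3 and -1.03 for Ncoa2 with TMM. Between origins Ncoa2 was higher in tumour CD71- neutrophils (log2 1.14, edgeR adjusted p 2.6e-05) and in tumour CD71+ neutrophils (0.53, edgeR adjusted p 0.01). With total counts these were 0.21 and -0.15, and the CD71+ call was lost without culture CD71+ replicate 1 (0.0989), culture CD71+ replicate 2 (0.0911) or tumour CD71+ replicate 1 (0.098), each an edgeR adjusted p. With no filter the CD71+ call of Ncoa2 was lost too (edgeR adjusted p 0.0727). Ncoa1 was at 78.5 to 112 CPM in all libraries and passed in no comparison.

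Class I deacetylases are nuclear enzymes, of which Hdac1 and Hdac2 work as a pair in the Sin3, NuRD and CoREST complexes and Hdac3 in the NCoR complex. Hdac2 was at 13.6 and 15.4 CPM in tumour CD71+ libraries, against 3.63 and 4.02 CPM in tumour CD71- libraries. It rose 3.79-fold (log2 1.92 ± 0.27, edgeR adjusted p 0.00013). Hdac8, the gene of a deacetylase that also acts on cohesin, was at 5 and 5.84 CPM in tumour CD71+ libraries, against 1.4 and 1.11 CPM in tumour CD71- libraries, and rose 4.31-fold (log2 2.11 ± 0.37, edgeR adjusted p 0.00065). Both calls held under every alternative run. In culture Hdac2 was at 20.3 and 23.5 CPM in CD71+ libraries, against 15.6 and 16.6 CPM in CD71- libraries (log2 0.44 ± 0.22, edgeR adjusted p 0.20). Hdac8 was at 11 and 11.5 CPM in culture CD71+ libraries, against 12.2 and 14.5 CPM in culture CD71- libraries (log2 -0.24 ± 0.26, edgeR adjusted p 0.58). The lowest libraries for both genes were therefore the tumour CD71- ones. Their macrophage and monocyte markers summed to 955 to 963 CPM, against 4190 to 4580 in tumour CD71+ and 1020 to 1080 in culture CD71- libraries. Their microglia markers summed to 219 to 261 CPM, against 1180 to 1670 in tumour CD71+ and 77.4 to 78 in culture CD71- libraries. The part of such markers in the 2 genes was not tested. The CD71 effect of the tumour exceeded that of culture by 2.35 ± 0.46 for Hdac8 (edgeR adjusted p 0.0047), under every alternative run. For Hdac2 it did so by 1.48 ± 0.35 (edgeR adjusted p 0.013), a call lost without culture CD71+ replicate 1 (0.0966), culture CD71+ replicate 2 (0.0598), tumour CD71- replicate 1 (0.0866) or the second tumour CD71- library (0.0679), each an edgeR adjusted p.

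Hdac1 and Hdac3 passed in neither CD71 comparison. Hdac1 was at 32.4 to 48.6 CPM over all libraries and passed between origins in neither fraction, and its reads may be shared with Gm10093, which matched it at 99.4% over 1444 bases. The ratio of Hdac2 to Hdac1, in RPKM, was 0.322 and 0.265 in tumour CD71+ libraries, against 0.0622 and 0.0651 in tumour CD71- libraries. In culture it was 0.371 and 0.448 in CD71+ libraries, against 0.247 and 0.313 in CD71- libraries. Tumour CD71- neutrophils thus stood apart by their low share of Hdac2, which made up 16.8% and 14.5% of class I RPKM in tumour CD71+ and 4.27% and 4.45% in tumour CD71- libraries. Hdac2 was lower in tumour than in culture cells in CD71- neutrophils (log2 -2.07, edgeR adjusted p 1.1e-05) and in CD71+ neutrophils (-0.59, edgeR adjusted p 0.036). The call in CD71+ neutrophils was lost with DESeq2 size factors (0.0637), with the replicate block (0.0554) and without culture CD71+ replicate 1 (0.0831), culture CD71+ replicate 2 (0.219), tumour CD71+ replicate 1 (0.133), tumour CD71- replicate 1 (0.0509) or the second tumour CD71- library (0.0502), each an edgeR adjusted p. The DESeq2 test did not call Hdac2 there either (DESeq2 adjusted p 0.0912). Hdac8 was lower in the tumour in both fractions, by 1.06 ± 0.28 in CD71+ (-1.06, edgeR adjusted p 0.005) and 3.40 ± 0.35 in CD71- neutrophils (-3.40, edgeR adjusted p 1.5e-06). Hdac3 was lower in tumour than in culture CD71- neutrophils (log2 -0.79, edgeR adjusted p 0.005, and 0.102 without tumour CD71- replicate 1).

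Class IIa deacetylases shuttle between nucleus and cytoplasm under control of kinases and repress MEF2 target genes. They have little deacetylase activity of their own. In the tumour Hdac9 rose and Hdac4 fell, while Hdac5 and Hdac7 did not pass. Hdac9 was at 10.4 and 13.3 CPM in tumour CD71+ libraries, against 1.26 and 1.66 CPM in tumour CD71- libraries, and rose 8.06-fold (log2 3.01 ± 0.40, edgeR adjusted p 9e-05). In culture it was at 3.78 and 3.32 CPM in CD71+ libraries, against 3.26 and 2.54 CPM in CD71- libraries (log2 0.28 ± 0.34, edgeR adjusted p 0.63). The CD71 effects of both origins differed by 2.73 ± 0.53 (edgeR adjusted p 0.0045), and both calls held under every alternative run. Hdac4 was at 170 and 114 CPM in tumour CD71+ libraries, against 447 and 307 CPM in tumour CD71- libraries, and fell by 1.41 ± 0.24 on the log2 scale (-1.41, edgeR adjusted p 0.00072). It lost the call only with the neutrophil markers (-0.41, edgeR adjusted p 0.213). In culture it was at 116 and 129 CPM in CD71+ libraries, against 101 and 148 CPM in CD71- libraries (log2 -0.03 ± 0.24, edgeR adjusted p 0.96). The difference between the CD71 effects was -1.38 ± 0.34 (edgeR adjusted p 0.017), and it was lost without culture CD71+ replicate 2 (0.0554), tumour CD71+ replicate 2 (0.0525), and also without tumour CD71- replicate 1 (0.0703), each an edgeR adjusted p. An overlapping gene on the opposite strand, Gm26720, shares exonic bases with Hdac4, and whether the counting used strand is not given in the sources used here.

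Windows of 300 bases around the transcription start are shown for Hdac9 and Hdac4, since these class members moved in opposite directions in the tumour. Both are RefSeq starts on the minus strand of build GRCm38.p6, at chr12:34917046-34917345 for Hdac9, the first of its 2 windows, and chr1:92180292-92180591 for Hdac4. Capitals mark GGGCGG, the GC box, and ACGTG, the core of the hypoxia response element, on either strand. The Hdac9 window holds neither and no CpG, with 44% G+C, while that of Hdac4 holds 5 GC boxes and has 68% G+C.
Hdac9: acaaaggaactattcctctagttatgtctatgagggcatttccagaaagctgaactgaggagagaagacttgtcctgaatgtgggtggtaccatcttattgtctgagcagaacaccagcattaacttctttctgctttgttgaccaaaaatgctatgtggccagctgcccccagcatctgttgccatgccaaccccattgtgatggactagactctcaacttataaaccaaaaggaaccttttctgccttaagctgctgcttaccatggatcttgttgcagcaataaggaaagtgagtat
Hdac4: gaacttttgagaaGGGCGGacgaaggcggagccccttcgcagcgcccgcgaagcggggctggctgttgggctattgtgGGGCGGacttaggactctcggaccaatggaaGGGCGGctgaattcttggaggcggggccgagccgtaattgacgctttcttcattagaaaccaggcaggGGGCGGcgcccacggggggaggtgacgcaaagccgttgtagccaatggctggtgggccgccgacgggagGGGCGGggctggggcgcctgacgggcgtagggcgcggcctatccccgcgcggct

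Hdac5 and Hdac7 fell in culture. Hdac7, which is known to act in thymocytes and endothelial cells, was at 87.2 and 107 CPM in culture CD71+ libraries, against 202 and 257 CPM in culture CD71- libraries. It fell by 1.24 ± 0.23 on the log2 scale (-1.24, edgeR adjusted p 0.0025), under every alternative run. Scaling on the mature neutrophil markers was not run in culture. These markers summed to 5380 to 6720 CPM in culture CD71+ and 10900 to 11400 in culture CD71- libraries, so that scaling would move log2 values up. Whether Hdac7 would keep its call under it is not known. Hdac5 was at 54 and 63.1 CPM in culture CD71+ libraries, against 108 and 142 CPM in culture CD71- libraries, and fell by 1.09 ± 0.22 (-1.09, edgeR adjusted p 0.0049, and 0.0708 without culture CD71+ replicate 1). In the tumour Hdac7 was at 24.3 and 14.6 CPM in CD71+ libraries, against 22.6 and 17.5 CPM in CD71- libraries, and Hdac5 was at 157 and 111 CPM in CD71+ libraries, against 207 and 144 CPM in CD71- libraries. These ranges overlapped and neither passed. The CD71 effect on Hdac7 differed between origins by 1.20 ± 0.34 (edgeR adjusted p 0.03). That call was lost with DESeq2 size factors (0.0537) and without culture CD71+ replicate 1 (0.125), culture CD71+ replicate 2 (0.0523), culture CD71- replicate 2 (0.073), tumour CD71+ replicate 1 (0.14, where the value was 0.77), tumour CD71- replicate 1 (0.0901) or the second tumour CD71- library (0.207), each an edgeR adjusted p. Between origins Hdac7 was lower in the tumour by 2.32 ± 0.24 in CD71+ (-2.32, edgeR adjusted p 2.5e-06) and 3.52 ± 0.26 in CD71- neutrophils (-3.52, edgeR adjusted p 4.7e-08). Hdac5 and Hdac9 were higher in tumour CD71+ than in culture CD71+ neutrophils (log2 1.19, edgeR adjusted p 0.00045, and 1.73, edgeR adjusted p 0.00044). In CD71- neutrophils Hdac4 was 3.02-fold higher in the tumour (edgeR adjusted p 8.2e-05). Hdac9 was lower there (log2 -1.0, edgeR adjusted p 0.049), a call lost in 5 of the 8 fits without a library. It was also lost with DESeq2 size factors (-0.75, 0.131), with no filter (0.0628) and with a stricter filter (0.0505), each an edgeR adjusted p. The fit of the 4 CD71- libraries (edgeR adjusted p 0.187) and the DESeq2 test (DESeq2 adjusted p 0.194) did not call it either.

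The make-up of class IIa therefore differed by origin. Hdac7 held 10.9% and 9.41% of the summed class IIa RPKM in tumour CD71+, 6.05% and 6.72% in tumour CD71-, 48.5% and 50.5% in culture CD71+ and 61.3% and 59.6% in culture CD71- libraries. Hdac4 held 32.7% and 31.5% in tumour CD71+, 51.1% and 50.4% in tumour CD71-, 27.5% and 25.9% in culture CD71+ and 13.1% and 14.7% in culture CD71- libraries. Hdac5 held 54.2% and 55.1% in tumour CD71+ and 42.7% and 42.6% in tumour CD71- libraries, against 22.9% to 25.4% in culture. Hdac9 reached 3.94% at most, in a tumour CD71+ library. Hdac5 led in tumour CD71+ neutrophils, Hdac4 in tumour CD71- neutrophils and Hdac7 in both culture fractions.

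**Figure D3:**
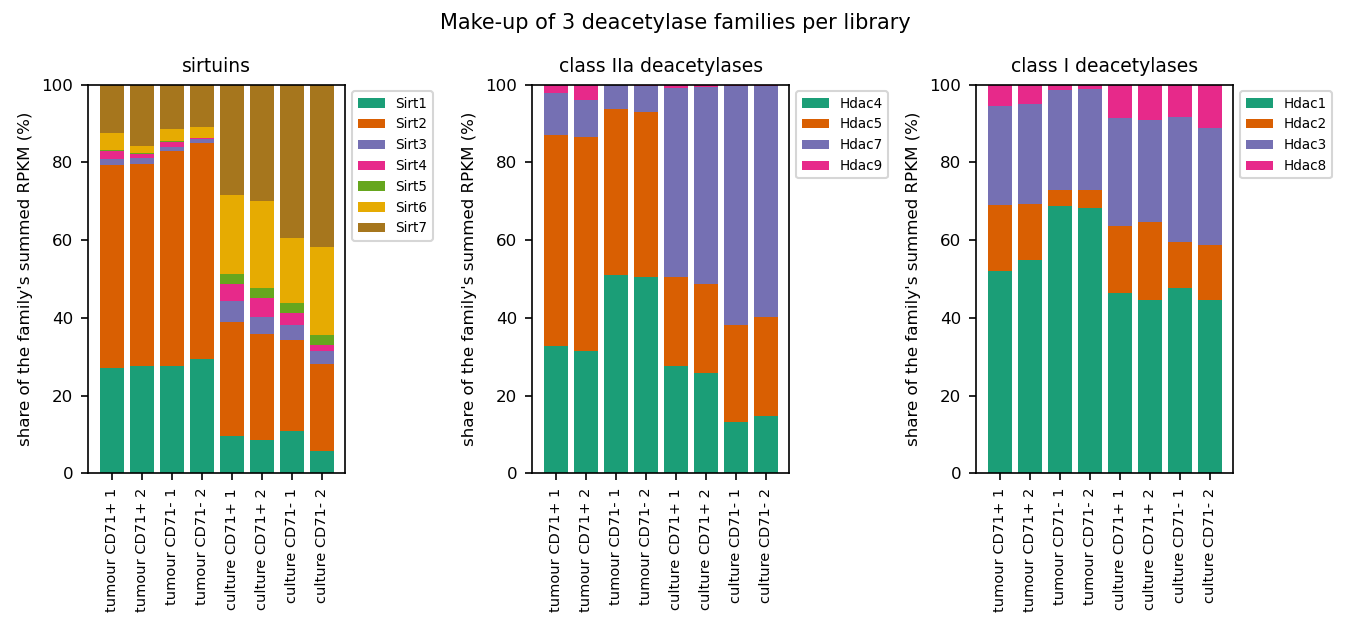
Share of each gene (%) in the summed RPKM of its family, for the sirtuins, the class IIa and the class I deacetylases, in each of the 8 libraries (bars stack to 100%). Sirt1 and Sirt2 together hold 79.3% to 85.1% of sirtuin RPKM in tumour libraries and 28% to 38.9% in culture libraries, and Hdac7 holds 6.05% to 10.9% of class IIa RPKM in the tumour and 48.5% to 61.3% in culture.

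Class IIb and class IV hold the remaining deacetylases. Hdac6, a cytoplasmic tubulin deacetylase, was at 7.68 to 14.4 CPM over all libraries and passed in no comparison. Hdac10, which deacetylates polyamines, was at 3.91 and 3.33 CPM in tumour CD71- libraries, against 8.05 and 15.9 CPM in culture CD71- libraries, and was lower in the tumour (log2 -1.71, edgeR adjusted p 0.0016). Hdac11, a remover of long-chain fatty acyl groups, was at 2.21 and 1.88 CPM in tumour CD71+ libraries, against 0.14 and 0.277 CPM in tumour CD71- libraries. Libraries outside the tumour CD71+ group held 0 to 7 counts each, so only that group let Hdac11 pass the filter on low counts. Tests of Hdac11 as higher in that group thus concern a gene that was kept because it was high there. Hdac11 passed as higher (edgeR adjusted p 0.026), on 43 counts in both tumour CD71+ libraries together and 3 in both tumour CD71- libraries. The ratio of these counts per scaled library size was 9.8, with an exact 95% interval from 3.14 to 49.4 that covers counting error only. The call was lost by the DESeq2 test (0.0687) and, by edgeR, without tumour CD71+ replicate 1 (0.0612) and without either tumour CD71- library (0.214 without replicate 1 and 0.148 without replicate 2), each an adjusted p. Against the 7 counts of culture CD71+ libraries the ratio was 18 (8.04 to 47.5), with an edgeR adjusted p of 0.0017, and 0.0589 without culture CD71+ replicate 1.

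Sirtuins divide by place in the cell, with Sirt1, Sirt6 and Sirt7 nuclear, Sirt2 mainly cytoplasmic and Sirt3, Sirt4 and Sirt5 mitochondrial. Sirt1 was at 84.3 and 65.2 CPM in tumour CD71+, 126 and 118 in tumour CD71-, 17.2 and 17.3 in culture CD71+ and 25.4 and 17.2 in culture CD71- libraries. Sirt2 was at 152 and 115 CPM in tumour CD71+, 238 and 210 in tumour CD71-, 50.3 and 52.5 in culture CD71+ and 51.9 and 64.2 in culture CD71- libraries. Every tumour library lay above every culture library for both genes. Sirt1 was 4.34-fold higher in tumour than in culture CD71+ neutrophils (edgeR adjusted p 1.2e-06) and 5.69-fold higher in CD71- neutrophils (edgeR adjusted p 2.1e-07). The folds for Sirt2 were 2.6 (edgeR adjusted p 2.4e-05) and 3.87 (edgeR adjusted p 7.1e-07), and all 4 calls held under every alternative run. Between the CD71 fractions of the tumour, Sirt1 fell by 0.70 ± 0.20 (-0.70, edgeR adjusted p 0.013) but stood at 0.30 with the neutrophil markers, and Sirt2 fell by 0.75 ± 0.18 (-0.75, edgeR adjusted p 0.0052) but stood at 0.26. Both calls were lost with total counts (-0.15 and -0.19) and without tumour CD71+ replicate 2 (edgeR adjusted p 0.113 and 0.065). In culture neither passed between the fractions.

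The Sirt1 start is shown because this gene had one of the widest gaps between origins. Its window, chr10:63338986-63339285 on the minus strand of GRCm38.p6, has 79% G+C and holds 7 GC boxes and 2 copies of CACGTG, the E-box, in each of which ACGTG is read once on each strand (capitals mark GGGCGG and ACGTG on either strand, and overlapping copies run together).
Sirt1: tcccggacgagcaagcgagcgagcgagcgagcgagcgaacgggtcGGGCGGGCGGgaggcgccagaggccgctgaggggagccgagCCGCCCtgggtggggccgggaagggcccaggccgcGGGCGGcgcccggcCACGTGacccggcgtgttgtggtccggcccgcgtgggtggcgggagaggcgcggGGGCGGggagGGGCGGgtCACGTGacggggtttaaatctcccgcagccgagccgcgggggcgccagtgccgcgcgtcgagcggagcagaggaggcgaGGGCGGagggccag

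Sirt3, Sirt5, Sirt6 and Sirt7 were lower in tumour than in culture neutrophils, unlike Sirt1 and Sirt2. Sirt6, which deacetylates histones at telomeres and at glycolytic genes, was at 6.83 and 2.35 CPM in tumour CD71+ against 19.1 and 23.6 in culture CD71+ libraries, and at 7.26 and 5.82 CPM in tumour CD71- against 20.1 and 35.8 in culture CD71- libraries. It was lower in the tumour by 2.22 ± 0.41 (-2.22, edgeR adjusted p 0.00064) and 2.09 ± 0.42 (-2.09, edgeR adjusted p 0.00079). Sirt5, a desuccinylase, was at 1.54 and 0.847 CPM in tumour CD71+ against 5.4 and 6.36 in culture CD71+ libraries, and at 0.977 and 0.277 CPM in tumour CD71- against 6.87 and 8.43 in culture CD71- libraries. It was lower by 2.30 ± 0.45 (-2.30, edgeR adjusted p 6e-04) and 3.59 ± 0.53 (-3.59, edgeR adjusted p 4.3e-05). These 4 calls held under every alternative run, but Sirt5 transcripts match stretches of 11 other genes, such as 843 bases of Wdr31 at 97.6%, so its counts are uncertain. Sirt3, the main mitochondrial deacetylase, was lower in tumour CD71+ (log2 -1.15, edgeR adjusted p 0.0053) and tumour CD71- neutrophils (-1.09, edgeR adjusted p 0.008, and 0.134 without tumour CD71- replicate 2). Sirt4, at 0.554 to 4.35 CPM, passed in no comparison.

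Sirt7, a deacetylase of chromatin and nucleoli, fell in culture and was lower in the tumour. It was at 49.8 and 59 CPM in culture CD71+ libraries, against 89.7 and 123 CPM in culture CD71- libraries (log2 -0.97 ± 0.19, edgeR adjusted p 0.0041, and 0.0862 without culture CD71+ replicate 1). In the tumour it was at 37.6 and 35.6 CPM in CD71+ libraries, against 50.5 and 41.8 CPM in CD71- libraries (log2 -0.34 ± 0.20, edgeR adjusted p 0.19). Between origins it was lower in tumour CD71- (log2 -1.20, edgeR adjusted p 0.00011) and tumour CD71+ neutrophils (-0.57, edgeR adjusted p 0.022). The second call was lost by the DESeq2 test (0.0513) and, by edgeR, without culture CD71+ replicate 2 (0.134), tumour CD71+ replicate 1 (0.0542) or the second tumour CD71+ library (0.0671), each an adjusted p. Sirt1 and Sirt2 together made up 79.3% and 79.5% of sirtuin RPKM in tumour CD71+, 82.9% and 85.1% in tumour CD71-, 38.9% and 35.8% in culture CD71+ and 34.3% and 28% in culture CD71- libraries. Sirt6 and Sirt7 filled most of the rest in culture, with 16.5% to 22.6% and 28.5% to 41.9%.

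Brd2 and Brd3 encode BET proteins, which bind acetylated histones through paired bromodomains and are the targets of BET inhibitors. Brd2 was at 386 and 373 CPM in tumour CD71+, 656 and 542 in tumour CD71-, 226 and 224 in culture CD71+ and 328 and 300 in culture CD71- libraries. It fell by 0.66 ± 0.16 in the tumour (-0.66, edgeR adjusted p 0.0052), but stood at 0.34 with the neutrophil markers and lost the call with total counts (-0.09, edgeR adjusted p 0.684). Brd3 was at 17.4 and 11.4 CPM in tumour CD71+ libraries, against 6.84 and 6.65 CPM in tumour CD71- libraries, and rose 2.13-fold (log2 1.09 ± 0.25, edgeR adjusted p 0.0034). The call of Brd3 was lost without tumour CD71- replicate 1 (0.0542) or replicate 2 (0.056), each an edgeR adjusted p. In culture Brd3 was at 42 and 47.4 CPM in CD71+ libraries, against 55.4 and 63.5 CPM in CD71- libraries (log2 -0.41 ± 0.21, edgeR adjusted p 0.20). The CD71 effects of both origins differed by 1.5 ± 0.32 for Brd3 (edgeR adjusted p 0.0082), which was lost without culture CD71+ replicate 1 (0.0522), tumour CD71- replicate 1 (0.0642) or the second tumour CD71- library (0.0715), each an edgeR adjusted p. Brd3 was lower in the tumour by 1.63 ± 0.22 in CD71+ (-1.63, edgeR adjusted p 2.5e-05) and 3.14 ± 0.25 in CD71- neutrophils (-3.14, edgeR adjusted p 8.3e-08), under every alternative run. Brd2 was higher in the tumour by 0.75 ± 0.16 (edgeR adjusted p 0.0012) and 0.93 ± 0.16 (edgeR adjusted p 0.00018), but with total counts it stood at 0.07 and 0.00. Brd3 over Brd2, in RPKM, was 0.0481 and 0.0326 in tumour CD71+ and 0.0111 and 0.0131 in tumour CD71- libraries, against 0.18 to 0.225 in culture. Brd2 overlaps exons of H2-DMa on the opposite strand.

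Acly cleaves cytosolic citrate to acetyl-CoA, and Acss2 makes acetyl-CoA from acetate, so the pair feeds the same nuclear and cytosolic pool. Acly was at 142 and 123 CPM in tumour CD71+ libraries, against 70.6 and 61.7 CPM in tumour CD71- libraries, and rose 2-fold (log2 1.0 ± 0.18, edgeR adjusted p 0.00079), under every alternative run. Acss2 was at 10.9 and 8.38 CPM in tumour CD71+ libraries, against 23 and 22.3 CPM in tumour CD71- libraries, and fell by 1.24 ± 0.27 on the log2 scale (-1.24, edgeR adjusted p 0.0027). The fall of Acss2 lost its call with total counts (-0.68, edgeR adjusted p 0.0614) and with the neutrophil markers (-0.23, edgeR adjusted p 0.547). Acly over Acss2, in RPKM, was 25.2 and 28.3 in tumour CD71+ libraries, against 5.9 and 5.32 in tumour CD71- libraries, a gap that does not depend on scaling. In culture the ratio was 55.5 and 50.5 in CD71+ libraries, against 58.8 and 107 in CD71- libraries. Acly was at 425 and 336 CPM in culture CD71+ libraries, against 402 and 473 CPM in culture CD71- libraries, and Acss2 at 14.7 and 12.8 CPM, against 13.1 and 8.52 CPM. These ranges overlapped for both genes and neither passed. The CD71 effects of both origins differed by 1.20 ± 0.25 for Acly (edgeR adjusted p 0.0069, and 0.0543 without culture CD71+ replicate 2 or 0.0707 without tumour CD71- replicate 2) and by -1.57 ± 0.38 for Acss2 (edgeR adjusted p 0.013, and 0.0708 without culture CD71+ replicate 1). Between origins Acly was lower in the tumour by 1.52 ± 0.18 in CD71+ (-1.52, edgeR adjusted p 7.2e-06) and 2.72 ± 0.19 in CD71- neutrophils (-2.72, edgeR adjusted p 2.5e-08), under every alternative run. Acss2 was 2.08-fold higher in tumour than in culture CD71- neutrophils (edgeR adjusted p 0.0032), but with total counts the log2 value was 0.12 (edgeR adjusted p 0.708). Acss2 shares exonic bases with Acss2os, Ggt7 and Gss on the opposite strand.

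Starts of both acetyl-CoA suppliers are shown because their levels moved apart in the tumour. The windows lie at chr11:100527951-100528250 on the minus strand for Acly and chr2:155517793-155518092 on the plus strand for Acss2, in GRCm38.p6. Capitals mark GGGCGG and ACGTG on either strand, which overlap by 1 base in Acly. Acly holds 4 GC boxes and 1 ACGTG, and Acss2 holds 5 GC boxes and no ACGTG.
Acly: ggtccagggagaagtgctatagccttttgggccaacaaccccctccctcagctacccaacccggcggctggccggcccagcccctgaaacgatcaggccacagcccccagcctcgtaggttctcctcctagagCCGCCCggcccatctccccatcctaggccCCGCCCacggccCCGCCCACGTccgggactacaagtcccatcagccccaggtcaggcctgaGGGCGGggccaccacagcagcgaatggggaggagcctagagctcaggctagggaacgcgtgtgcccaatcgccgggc
Acss2: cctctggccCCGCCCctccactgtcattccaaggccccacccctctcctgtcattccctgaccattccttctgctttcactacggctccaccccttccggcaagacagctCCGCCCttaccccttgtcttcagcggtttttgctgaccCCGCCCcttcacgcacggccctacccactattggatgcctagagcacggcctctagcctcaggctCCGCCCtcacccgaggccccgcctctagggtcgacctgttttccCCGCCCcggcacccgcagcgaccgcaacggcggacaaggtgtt

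Aars and Aars2 encode the cytosolic and mitochondrial alanyl-tRNA synthetases. Aars was at 101 and 80.9 CPM in tumour CD71+, 82.4 and 84.7 in tumour CD71-, 24.1 and 20.7 in culture CD71+ and 11.8 and 18.5 in culture CD71- libraries. Every tumour library lay above every culture library, by 4.06-fold in CD71+ (edgeR adjusted p 2.7e-06) and 5.55-fold in CD71- neutrophils (edgeR adjusted p 4.1e-07), under every alternative run. Neither CD71 comparison passed for Aars, with 0.12 ± 0.21 in the tumour (edgeR adjusted p 0.66) and 0.57 ± 0.22 in culture (edgeR adjusted p 0.089). Aars2 was at 3.37 and 5.65 CPM in tumour CD71+, 3.21 and 1.52 in tumour CD71-, 5.31 and 9.19 in culture CD71+ and 8.05 and 14.6 in culture CD71- libraries. It was lower in tumour than in culture CD71- neutrophils (log2 -2.24, edgeR adjusted p 0.00095), while the value of -0.68 in CD71+ neutrophils did not pass (edgeR adjusted p 0.18). Aars over Aars2, in RPKM, was 15.4 and 7.36 in tumour CD71+, 13.2 and 28.5 in tumour CD71-, 2.33 and 1.16 in culture CD71+ and 0.755 and 0.65 in culture CD71- libraries. Exosc6 lies within Aars on the same strand over 1326 exonic bases and had 0 counts in the 8 libraries, so reads from these bases may not have been assigned to either gene.

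**Figure D4:**
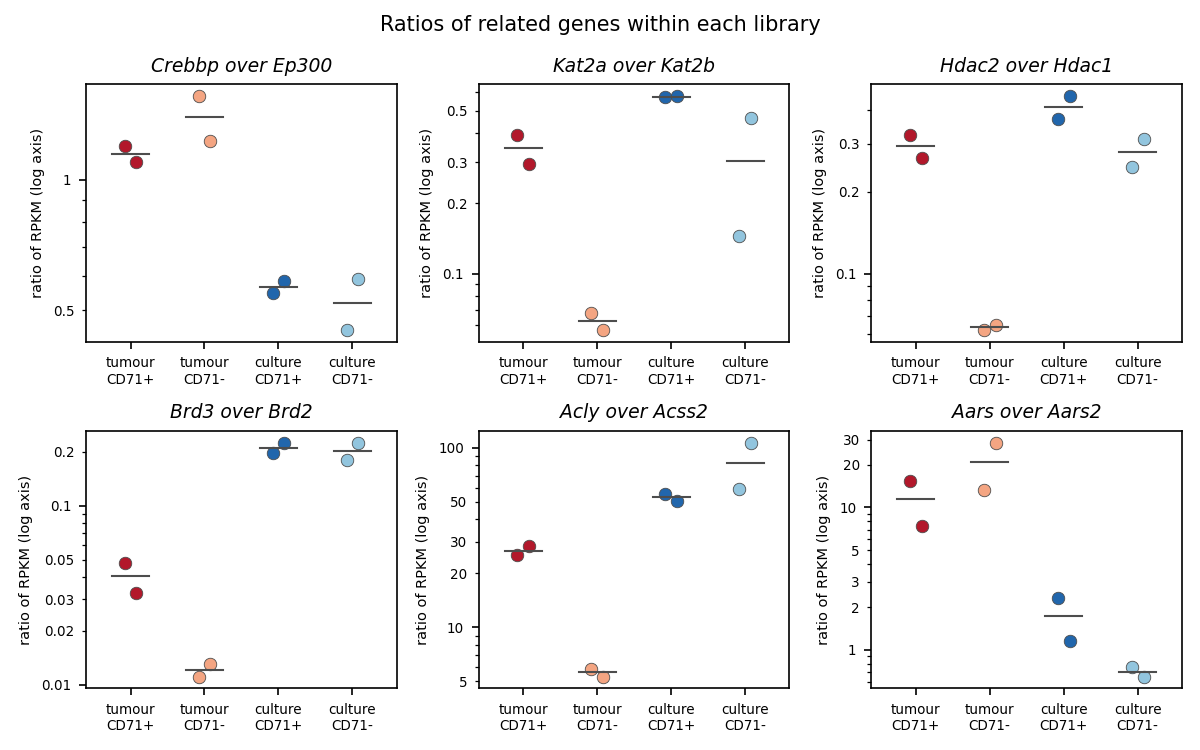
Ratio of the RPKM of 2 related genes within each library (log axis, scaled separately for each panel); points are libraries and bars the mean of the 2 libraries of a group. Tumour CD71- libraries are lowest for Kat2a over Kat2b (0.0572 and 0.0678), Hdac2 over Hdac1, Brd3 over Brd2 and Acly over Acss2, and tumour libraries are highest for Crebbp over Ep300 and Aars over Aars2.

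Set side by side, tumour and culture differed in more of the 37 genes than the CD71 fractions did. In CD71+ neutrophils 11 were higher and 11 lower in the tumour, or 29.7% each, beside 30.3% higher, 27.6% lower and 57.9% in either direction among all genes tested. In CD71- neutrophils 10 were higher and 17 lower, or 27% and 45.9%, beside 30.3%, 36.8% and, in either direction, 67.1% among all genes. Medians over the 37 genes were -0.16 and -0.37 on the log2 scale, and over all genes -0.08 and -0.28. With total counts the median of all genes moved by -0.67 and -0.93. Of the 37 genes 7 were then higher and 23 lower in CD71+ neutrophils, beside 3289 and 7949 of all 15975 genes tested. In CD71- neutrophils 5 were higher, beside 2994 of all genes. Shares near those of all genes say nothing particular of the set. Under every alternative run, Aars, Ncoa3, Sirt1 and Sirt2 passed as higher in the tumour in both fractions. Acly, Brd3, Hdac7, Hdac8, Kat7, Sirt5 and Sirt6 so passed as lower. Scaling on the mature neutrophil markers was not run between origins. These markers summed to 18600 to 18900 CPM in tumour CD71+ against 5380 to 6720 in culture CD71+ libraries. In CD71- libraries the sums were 36500 to 38900 in the tumour against 10900 to 11400 in culture. Such a scaling would move every log2 value of tumour over culture down, and the calls under it are not known. Beside the calls in CD71+ neutrophils, all 10 microglia markers were higher in the tumour, as were 8 of 10 glioma and neural, 13 of 19 macrophage and monocyte, 6 of 8 endothelial and stromal and 16 of 25 mature neutrophil markers. Beside those in CD71- neutrophils, 7 of 10 microglia, 6 of 10 glioma and neural, 10 of 19 macrophage and monocyte, 4 of 8 endothelial and stromal and 15 of 25 mature neutrophil markers were higher. Mitochondrial genes took 0.829% and 1.04% of counts in tumour CD71+ against 1.45% and 2.17% in culture CD71+ libraries, and 0.413% and 0.202% in tumour CD71- against 7.09% and 12% in culture CD71- libraries. Their part in these values was not tested.

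**Figure D5:**
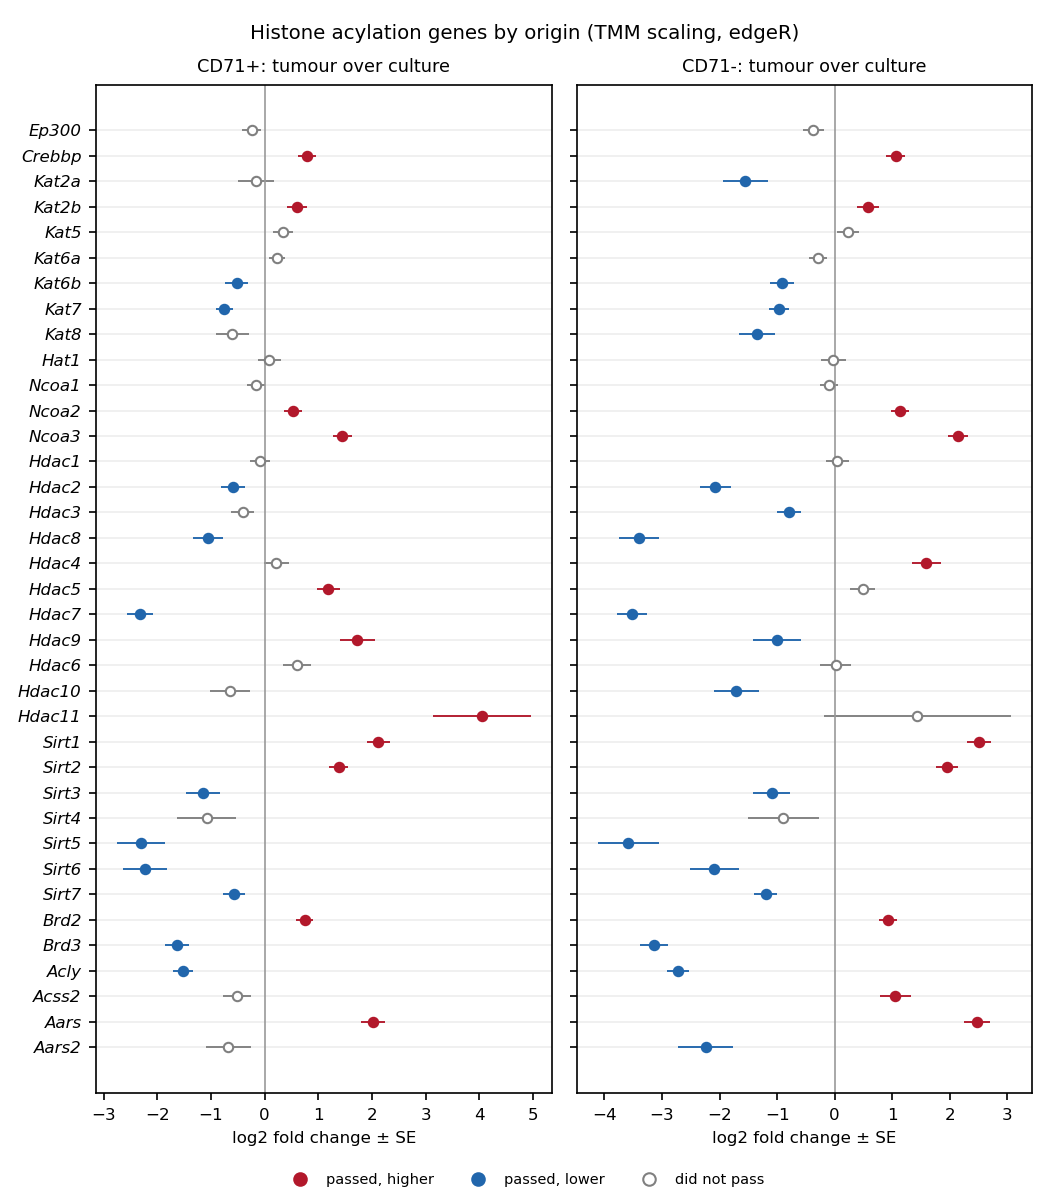
Log2 fold change of tumour over culture for each of the 37 genes (points, with SE as bars), in CD71+ neutrophils on the left and CD71- neutrophils on the right; filled points passed at an edgeR adjusted p under 0.05. Values run from -2.32 (Hdac7) to 4.05 (Hdac11) in CD71+ and from -3.59 (Sirt5) to 2.51 (Sirt1) in CD71- neutrophils.

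The CD71 effect differed between tumour and culture for 8 of the 37 genes. It was higher in the tumour for Hdac2, Hdac7, Hdac8, Hdac9, Brd3 and Acly, or 16.2%, beside 10.8% of all genes, and lower for Hdac4 and Acss2, or 5.41%, beside 4.71%. Medians were 0.22 over the 37 genes and 0.18 over all genes. The number higher was 10 with total counts and without culture CD71- replicate 1, 3 without tumour CD71- replicate 1, culture CD71+ replicate 1 or culture CD71+ replicate 2, and 2 without tumour CD71- replicate 2. The number lower was 4 with DESeq2 size factors and without culture CD71- replicate 1, and 1 without tumour CD71+ replicate 2, tumour CD71- replicate 1, culture CD71+ replicate 1 or culture CD71+ replicate 2. Hdac8 and Hdac9 passed under every alternative run. Both rest on few counts in the tumour CD71- libraries, 10 and 8 for Hdac8 and 9 and 12 for Hdac9. Of all 15975 genes tested, 2733 were higher in the tumour with total counts and 1212 were lower with DESeq2 size factors. The comparison of CD71 effects shares its libraries with both CD71 comparisons and is not separate evidence of them. Summed over the families, RPKM of the 13 acetyltransferases and coactivators over that of the 18 deacetylases and sirtuins was 1.52 and 1.78 in tumour CD71+, 1.41 and 1.66 in tumour CD71-, 1.57 and 1.35 in culture CD71+ and 1.45 and 1.08 in culture CD71- libraries. These ranges overlapped between the CD71 fractions of each origin and between the origins of each fraction.

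Partner proteins of these enzymes were followed in 4 lists. Of 34 partners of acetyltransferase complexes, 3 rose and 9 fell in tumour CD71+ relative to tumour CD71- neutrophils, or 8.82% and 26.5%, beside 26.2% and 17.3% of all genes, with a median of 0.03. Dmap1 of the NuA4 complex (log2 1.26, edgeR adjusted p 0.012) and Phf20 of the NSL complex (0.53, edgeR adjusted p 0.041) were among those that rose, and Msl2 (-1.05, edgeR adjusted p 0.00091) and Ing4 (-0.99, edgeR adjusted p 0.019) among those that fell. Msl2 encodes a subunit of the MSL complex of MOF, and Ing4 one of the HBO1 complex. Of 34 partners of deacetylase complexes, 6 rose and 12 fell, or 17.6% and 35.3%, beside the same 26.2% and 17.3% of all genes, with a median of -0.21. Mbd3 of NuRD was at 11.9 and 9.69 CPM in tumour CD71+ libraries, against 2.65 and 3.33 CPM in tumour CD71- libraries (log2 1.85, edgeR adjusted p 0.0047). Rcor3 of CoREST rose by 1.81 (edgeR adjusted p 0.00021), while Elmsan1 (-1.08, edgeR adjusted p 7e-04) and Arid4b of the Sin3 complex (-0.92, edgeR adjusted p 0.00057) fell. Ing4 stood at 0.02, Arid4b at 0.09 and the other named falls at -0.07 and -0.04 with the neutrophil markers. With total counts Msl2 (-0.49, 0.0738), Ing4 (-0.44, 0.297) and Arid4b (-0.35, 0.109) lost their calls, each with its edgeR adjusted p, and Elmsan1 did not. Calls were lost without tumour CD71- replicate 1 (0.0609) or replicate 2 (0.117) for Dmap1, and without the same libraries for Mbd3 (0.0849 and 0.0501). Ing4 lost its call without either tumour CD71+ library (0.0505 without replicate 1 and 0.069 without replicate 2) and without tumour CD71- replicate 2 (0.109), each an edgeR adjusted p. Phf20 did so in 5 of the 8 fits without a library. Its call was also lost with DESeq2 size factors (0.202), no filter (0.0563) and the replicate block (0.0658), each an edgeR adjusted p. The fit of the 4 tumour libraries (edgeR adjusted p 0.0568) and the DESeq2 test (DESeq2 adjusted p 0.272) did not call it either.

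Of 28 other acyl-lysine readers tested out of 32, 7 rose and 6 fell in tumour CD71+ neutrophils, or 25% and 21.4%, close to the 26.2% and 17.3% of all genes, with a median of -0.04. Mllt3, a YEATS reader of crotonyl and acetyl lysine, was at 7.89 and 9.32 CPM in tumour CD71+ libraries, against 2.23 and 1.11 CPM in tumour CD71- libraries (log2 2.36, edgeR adjusted p 0.001). Trim24 rose by 0.94 (edgeR adjusted p 0.0027, and 0.0575 without tumour CD71- replicate 2). Baz2b fell by 1.12 (-1.12, edgeR adjusted p 0.00067) and stood at -0.12 with the neutrophil markers.

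Of 24 supply genes tested out of 27, 11 rose and 3 fell in tumour CD71+ neutrophils, or 45.8% and 12.5%, beside 26.2% and 17.3% of all genes, with a median of 0.91. Acss1, the mitochondrial counterpart of Acss2, was at 27.6 and 31.2 CPM in tumour CD71+ libraries, against 3.07 and 2.49 CPM in tumour CD71- libraries (log2 3.40, edgeR adjusted p 1.1e-05). Ldhb, the lactate dehydrogenase subunit that favours pyruvate, was at 19.3 and 31 CPM in tumour CD71+ libraries, against 2.93 and 3.88 CPM in tumour CD71- libraries (log2 2.88, edgeR adjusted p 0.00013). Slc16a3, a lactate exporter, was at 946 and 569 CPM in tumour CD71+ libraries, against 1870 and 1740 CPM in tumour CD71- libraries (-1.25, edgeR adjusted p 0.0017), and stood at -0.25 with the neutrophil markers. Nadk, the NAD kinase, fell by 0.86 (-0.86, edgeR adjusted p 0.0023) and stood at 0.14 with the neutrophil markers. With total counts Nadk did not pass (-0.30, edgeR adjusted p 0.177). Acss1 and Acss2 thus moved in opposite directions between the CD71 fractions of the tumour.

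In culture 7.88% of all genes rose and 8.36% fell. None of the 34 acetyltransferase partners rose and 3 fell, or 8.82%, among them Msl1 (-0.78, edgeR adjusted p 0.005) and Kansl3 (-0.73, edgeR adjusted p 0.012). None of the 34 deacetylase partners rose and 10 fell, or 29.4%, with Gps2 of the NCoR complex (-1.22, edgeR adjusted p 0.0027) and Arid4b (-1.01, edgeR adjusted p 0.00081) among them. By an unadjusted p under 0.05 in edgeR's test, 10 and 14 of the 34 genes of these lists passed in either direction. Of all 15975 genes tested, 4887 did. Of 28 readers 1 rose, Mllt3 (1.33, edgeR adjusted p 0.025), and 6 fell, among them Smarca2 (-1.23, edgeR adjusted p 0.00025) and Brd9 (-1.13, edgeR adjusted p 0.00064), both of chromatin remodelling complexes. Of 24 supply genes 2 rose, or 8.33%, and none fell. They were Slc16a1, a lactate transporter (1.41, edgeR adjusted p 0.0067), and Acss1 (1.05, edgeR adjusted p 0.048). With total counts Msl1 (-0.47, edgeR adjusted p 0.0797) and Kansl3 (-0.41, edgeR adjusted p 0.109) did not pass. Without culture CD71+ replicate 1 the edgeR adjusted p was 0.076 for Msl1, 0.2 for Kansl3, 0.0653 for Gps2, 0.222 for Mllt3, 0.0672 for Slc16a1 and 0.351 for Acss1. Without culture CD71+ replicate 2 it was 0.0663 for Msl1, 0.0872 for Mllt3 and 0.0903 for Acss1, and without culture CD71- replicate 2 it was 0.0962 for Mllt3. Acss1 lost its call in 7 of the 8 fits without a library and with DESeq2 size factors (edgeR adjusted p 0.0563). The fit of the 4 culture libraries (edgeR adjusted p 0.115) and the DESeq2 test (DESeq2 adjusted p 0.053) did not call Acss1 either.

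Start windows of 300 bases, 250 before and 50 after the start, were found in RefSeq for 31 of the 37 genes, 44 windows in all, beside 32851 windows of all genes. No window was used for Kat6a, Ncoa2, Ncoa3, Hdac1, Hdac3 and Hdac10. Counting both strands, GGGCGG was present in 59.1% of the 44 windows and 35.7% of all windows. ACGTG was in 27.3% and 19.6%, and CACGTG, which contains it, in 11.4% and 7.15%. CCGGAAG, an ETS motif, was in 20.5% and 8.86%, and the NRF1 motif in 4.55% and 0.971%. The median G+C content was 61.2% beside 52.7%, and the median ratio of observed to expected CpG was 0.786 beside 0.384. These are letter matches and not measured binding, and windows of 1 gene can overlap. All 37 genes passed the filter on low counts, whereas the windows of all genes were not limited to genes that did. The shares are therefore not set against those of other expressed genes.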

How the data were processed

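RNA was extracted with a Quick-RNA Microprep kit and sequenced after a stranded total RNA preparation with removal of ribosomal RNA, per the labels' protocols. The submitters' processing notes name FastQC, cutadapt, STAR, featureCounts, DESeq2 and build mm10; their versions and the strand setting of the counting are not given in the sources used here. Raw read counts per gene were what the authors deposited, as 1 table of the 8 libraries.

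From these counts edgeR 4.0.16 (R 4.3.3) was fitted on all 8 libraries with 4 group means, TMM factors and its filter on low counts, which kept 15975 of 55450 genes and all 37 described here. The quasi-likelihood test was two-sided, with Benjamini-Hochberg adjustment over the genes kept. The threshold was an adjusted p of 0.05. SE is the log2 fold change divided by the square root of the test's F. Replicates were not identical and differed by more than sampling noise (chi-square per degree of freedom 12.6 to 69.2). Lengths and overlaps came from GENCODE M21, and transcripts were searched for near copies.

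The genes, lists and tests were chosen with earlier results of these data known. A member was named with a test where it passed, and Ep300 in every comparison; in the 4 pathway lists, the 2 largest rises and falls that passed with a mean of at least 5 CPM were named per CD71 comparison, except 1 reader that is not reported here. Ratios and family shares within a library were chosen after values were seen and carry no test. Alternatives were DESeq2 size factors, total counts, 2 other filters, DESeq2's test (1.42.0), a fit of 4 libraries, a replicate block, and each library left out. Scaling on neutrophil markers was a further alternative, run only for the CD71 comparison within the tumour. It was not run in culture, between origins or for the difference of the CD71 effects.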

Additional observations from a re-analysis of the deposited data

Results flagged for a closer look

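The CD71 effect differed between tumour and culture, by edgeR's test of the difference itself, for 8 of the 37 genes. The difference, tumour minus culture on the log2 scale, was 2.73 for Hdac9, 2.35 for Hdac8, 1.5 for Brd3, 1.48 for Hdac2, 1.20 for Acly, 1.20 for Hdac7, -1.38 for Hdac4 and -1.57 for Acss2. For Hdac7 it came with a fall in culture (-1.24) and a value of -0.04 in the tumour, and for the other 7 with a call in the tumour and none in culture. With 2 libraries a group, no library could be tested as standing apart from its group.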

How the results depend on the processing

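Single genes were followed under the alternatives only where they had passed in the main fit, and Ep300 in every comparison. Of these values, 1438 kept their direction and their side of the threshold, 143 lost the call, 12 gained one and 20 changed sign. By this choice only Ep300 could gain a call, so losses and gains cannot be weighed against each other. The cause of the changes was not tested. For the 37 genes in the tumour, 15 were higher with total counts, beside 6787 of all 15975 genes tested, and 1 was lower, beside 491. With neutrophil marker scaling 25 were higher, beside 9186 of all genes, and 0 lower, beside 32. With DESeq2 size factors 15 were lower, beside 3854 of all genes, and 15 were lower by the DESeq2 test. In culture 2 were higher with total counts, beside 2617 of all genes, and 1 with no filter. Lower in culture were 7 with DESeq2 size factors, beside 1581 of all genes, and 7 by the DESeq2 test. With total counts 7 were higher and 23 lower in tumour than in culture CD71+ neutrophils, beside 3289 and 7949 of all genes. The same scaling left 5 higher in CD71- neutrophils, beside 2994 of all genes. It made the CD71 effect higher in the tumour for 10, beside 2733 of all genes. The CD71 effect was lower in the tumour for 4 with DESeq2 size factors, beside 1212 of all genes, and for 4 by the DESeq2 test. No share over all genes is given here for the DESeq2 test, the fit with no filter or the fits without a library. With each library left out, the genes higher and lower numbered 5 to 7 and 5 to 10 in the tumour, 0 to 2 and 1 to 7 in culture, 8 to 12 and 8 to 12 between origins in CD71+, 10 to 11 and 12 to 19 in CD71-, and 2 to 10 and 1 to 4 for the difference.

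Signs turned in the tumour with neutrophil marker scaling for Ep300 (0.62), Crebbp (0.36), Ncoa2 (0.11), Ncoa3 (0.34), Sirt1 (0.30), Sirt2 (0.26), Brd2 (0.34), Ing4 (0.02), Arid4b (0.09) and Nadk (0.14), and with total counts for Ep300 (0.16). Between origins they turned with total counts for Kat2b (-0.08 in CD71+ and -0.35 in CD71-), Ncoa2 (-0.15 in CD71+) and Brd2 (0.00 in CD71-). The difference of the CD71 effect of Ep300 turned with DESeq2 size factors (-0.05), by the DESeq2 test (-0.05) and without tumour CD71- replicate 1 (-0.19) or culture CD71- replicate 1 (-0.05), and ran from -0.19 to 0.25 over the fits without a library.

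Replicate differences of 2 groups correlated across genes at -0.14 to 0.07. The labels state no pairing by replicate number. These correlations cannot exclude one, since each difference also holds the noise of its 2 libraries. With the replicate block 8 of the 37 genes were lower in the tumour and 4 in culture, as without it, and Hdac2 between origins in CD71+ (edgeR adjusted p 0.0554) and Hdac9 in CD71- neutrophils (edgeR adjusted p 0.0698) lost their calls, as did Phf20 in the tumour (0.0658) and Acss1 in culture (0.0738). Depth limits the lowest genes: 3 counts correspond to 0.0915 to 0.419 CPM, and Hdac11 had 0 to 7 counts in each library outside the tumour CD71+ group.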
